A study of Sus scrofa with 4 samples.

Results

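The genes described here encode the subunits of the mitochondrial respiratory chain: complexes I to IV, cytochrome c and ATP synthase, which is also called complex V. They were chosen by gene name alone, with a name pattern for NADH dehydrogenase (NDUFA, NDUFB, NDUFC, NDUFS and NDUFV), succinate dehydrogenase (SDHA to SDHD), the cytochrome bc1 complex (UQCR and CYC1), cytochrome c oxidase (COX followed by a digit), ATP synthase (ATP5) and CYCS, and no measured value entered the choice. The pattern matched 43 of the 34853 gene names on the array and 184 of its 43603 probes, each an oligonucleotide of 60 bases. ATP5S, a coupling factor, was counted with ATP synthase, and NDUFA4L2, a paralogue of NDUFA4, with complex IV. So counted, the 43 names held 8 genes of complex I, 3 of complex II, 2 of complex III, cytochrome c, 13 of complex IV and 10 of ATP synthase. The other 6, namely NDUFAF3, NDUFAF4, NDUFAF5, NDUFAF6, COX10 and COX17, are factors that help to build complexes I and IV and are not part of them. They fell under the pattern by name and are given as their own group.

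Gene expression was measured in porcine intramuscular preadipocytes (PIP), a cell line that according to the methods came from the marbling muscle of the musculus longissimus thoracis of a female Duroc pig and was used at passages 26 to 35. Post-confluent PIP were turned into mature adipocytes (pMA) by 4 days in a medium with 50 ng/mL insulin, 0.25 μM dexamethasone, 2 mM octanoate and 200 μM oleate. Some pMA were then stimulated for 12 h, either with serotonin at 100 μM or with TNF-α at 2.5 µg/mL. Each of the 4 groups, PIP, unstimulated pMA, pMA with serotonin and pMA with TNF-α, was read on 1 array, all groups stemmed from this 1 line, and the RNA of a group was pooled before labeling, so differences between groups could not be checked against replicates, and no test was made. The serotonin and the TNF-α comparison share the array of unstimulated pMA, and whatever is particular to that array enters both. Because the RNA came from whole cultures, fewer cells of a type and less RNA per cell cannot be told apart.

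A level is given as log2 of the fluorescence intensity minus log2 of the 75th percentile of that array, so that 0 is the 75th percentile and each step of 1 is a doubling. The 75th percentile of intensity was 515 in PIP, 479 in pMA, 566 after serotonin and 559 after TNF-α, and 56.5% to 66.1% of the probes were well above background. Where a gene name had several probes, the probe with the highest mean level stands for it. Intensities of different probes are not comparable, so each level is set only against the same probe on the other arrays. Probes spotted more than once gave a standard deviation of 0.11 to 0.15 between their spots, which makes 0.17 to 0.20 for a log2 ratio between arrays and covers only the noise within an array. The fold cutoff of the methods is 2-fold, a log2 ratio of 1, and "rose" and "fell" are used only beyond it.

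Complexes I and II take electrons from NADH and succinate and pass them through ubiquinone to complex III, cytochrome c and complex IV, where oxygen is reduced. Complexes I, III and IV pump protons out of the matrix as they work, and ATP synthase uses their return to make ATP. Most subunits are encoded in the nucleus and imported, whereas a few core subunits are encoded in mitochondrial DNA and made inside the organelle. Adipocytes draw on the chain for lipid synthesis and for the oxidation of fatty acids, and several subunits of complex IV exist as isoforms that differ between tissues.

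Of the 43 gene names, 42 were well above background on all 4 arrays. COX8H, the heart isoform of subunit 8 of complex IV, was on none of them, and its 2 probes, which overlap by 50 bases, gave no ratio. Of the 184 probes, 182 were well above background on all arrays. Levels of 37 genes were above the 75th percentile on every array, and for 35 of 42 genes the highest and lowest of the 4 arrays lay within 1.5-fold of each other. Both counts are of the brightest probes and were not made over all gene names, so they do not show these genes to be brighter or flatter than others. Most of the genes described here were thus bright and flat over the conditions at those probes, and the results turn on the few that were not.

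The sequences below are the deposited probes on which those few rest, given 5′ to 3′ as on the array. For COX7A1, the heart and muscle isoform of subunit 7A, and COX7A2, its counterpart in other tissues, a stretch of 30 bases is shown with the polyadenylation signal AATAAA, which lies near the end of transcripts, in capitals. For COX7A1 it comes from the brightest probe, and for COX7A2 from the brightest of its probes that holds the signal, which starts at base 416 and is not the brightest probe of the gene.
COX7A1: tcaacaagcatcAATAAAtgttctggcttc
COX7A2: ctaactgccaccAATAAAgcagtctttacc
The signal AATAAA, searched on the printed strand, occurred in 16.3% of the 184 member probes and in 9.6% of all 43603 probes, and 12 of the 43 genes were read by a brightest probe that held it. NDUFAB1, the mitochondrial acyl carrier protein, had 1 probe, of which the first 30 bases are shown because the largest ratio of the whole set rests on it alone. Capitals mark the first stop codon in each of 2 reading frames.
NDUFAB1: aTGAtcactTAAgagtcagtgataccacag
The third frame of this probe met a stop codon at base 39, so none of its 3 frames was open over the 60 bases. This was not particular to NDUFAB1: the only probe of UQCR10 and all 4 probes of COX17 had no open frame either. For COX1, the catalytic subunit of complex IV encoded in mitochondrial DNA, the 5′-most and the brightest of 24 probes are shown whole because the ratio of the gene changed along its transcript.
COX1, 5′ probe: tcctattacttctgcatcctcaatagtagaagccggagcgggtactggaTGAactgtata
COX1, brightest probe: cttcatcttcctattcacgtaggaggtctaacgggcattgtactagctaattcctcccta
They start at bases 325 and 1028 of the transcript the array was designed on. The capitals in the first mark a TGA in the reading frame, which the mitochondrial code reads as tryptophan and the standard code as a stop.

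Most genes of the chain had similar levels before and after differentiation. Between PIP and pMA, 1 of the 42 genes rose at least 2-fold, COX7A1, beside 9.94% of all 18635 gene names with a ratio, and none fell that far, beside 3.56% of all gene names. Their median log2 ratio was 0.06, that of all gene names was 0.12, and 18 of the 42 (42.9%) lay above the median of all. Another 4 genes passed 1.5-fold: COX1 and NDUFA4L2 were higher in pMA and NDUFAF4 and NDUFAF6 lower, so that 37 of 42 stayed under 1.5-fold, whereas 23.4% of all gene names were at least 1.5-fold higher and 10.6% at least 1.5-fold lower. The direction of small ratios depended on how the arrays were scaled: 25 of 42 were positive here, 8 after scaling to each array's median and 39 after scaling to bright spike-in controls, and the median of all gene names moved with it, from 0.12 to −0.22 and 0.52.

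Serotonin moved no gene of the chain by 2-fold in either direction, beside 2.08% of all 19098 gene names at least 2-fold higher and 4.73% at least 2-fold lower. None passed 1.5-fold either, beside 8.34% of all gene names higher and 12.6% lower by that much. The median log2 ratio was 0.06 against 0.01 for all gene names, and 26 of 42 (61.9%) lay above the median of all. Over 9 processing settings, 26 to 35 of the ratios were positive. The values ran from −0.40 in CYCS to 0.57 in NDUFAB1.

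After TNF-α, 2 of the 42 genes rose at least 2-fold, NDUFAB1 and COX7A1, beside 2.21% of all 19783 gene names, and none fell that far, beside 1.34%. The other 40 genes stayed under 1.5-fold, which 6.88% of all gene names passed upward and 5.26% downward. The genes of the chain were shifted slightly downward as a set: 33 of 42 log2 ratios were negative (27 to 37 over 9 settings), the median was −0.12 against 0.01 for all gene names, and 9 of 42 (21.4%) lay above the median of all. The middle 50% of the genes fell between −0.17 and −0.02, and the middle 50% of all gene names between −0.18 and 0.21. No single gene was lower by more than 2 standard deviations of the spot noise of a ratio, whereas 9.91% of all gene names were. Bright gene names as a whole were also on the low side in this comparison. The 981 names with a mean level of at least 5, a limit chosen after the values were seen, had a median of −0.07, and the 30 members among them −0.13. The same 2 medians were 0.04 and 0.07 in differentiation, where the bright members thus lay above the bright names. After serotonin they were −0.13 and 0.03.

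**Figure D1:**
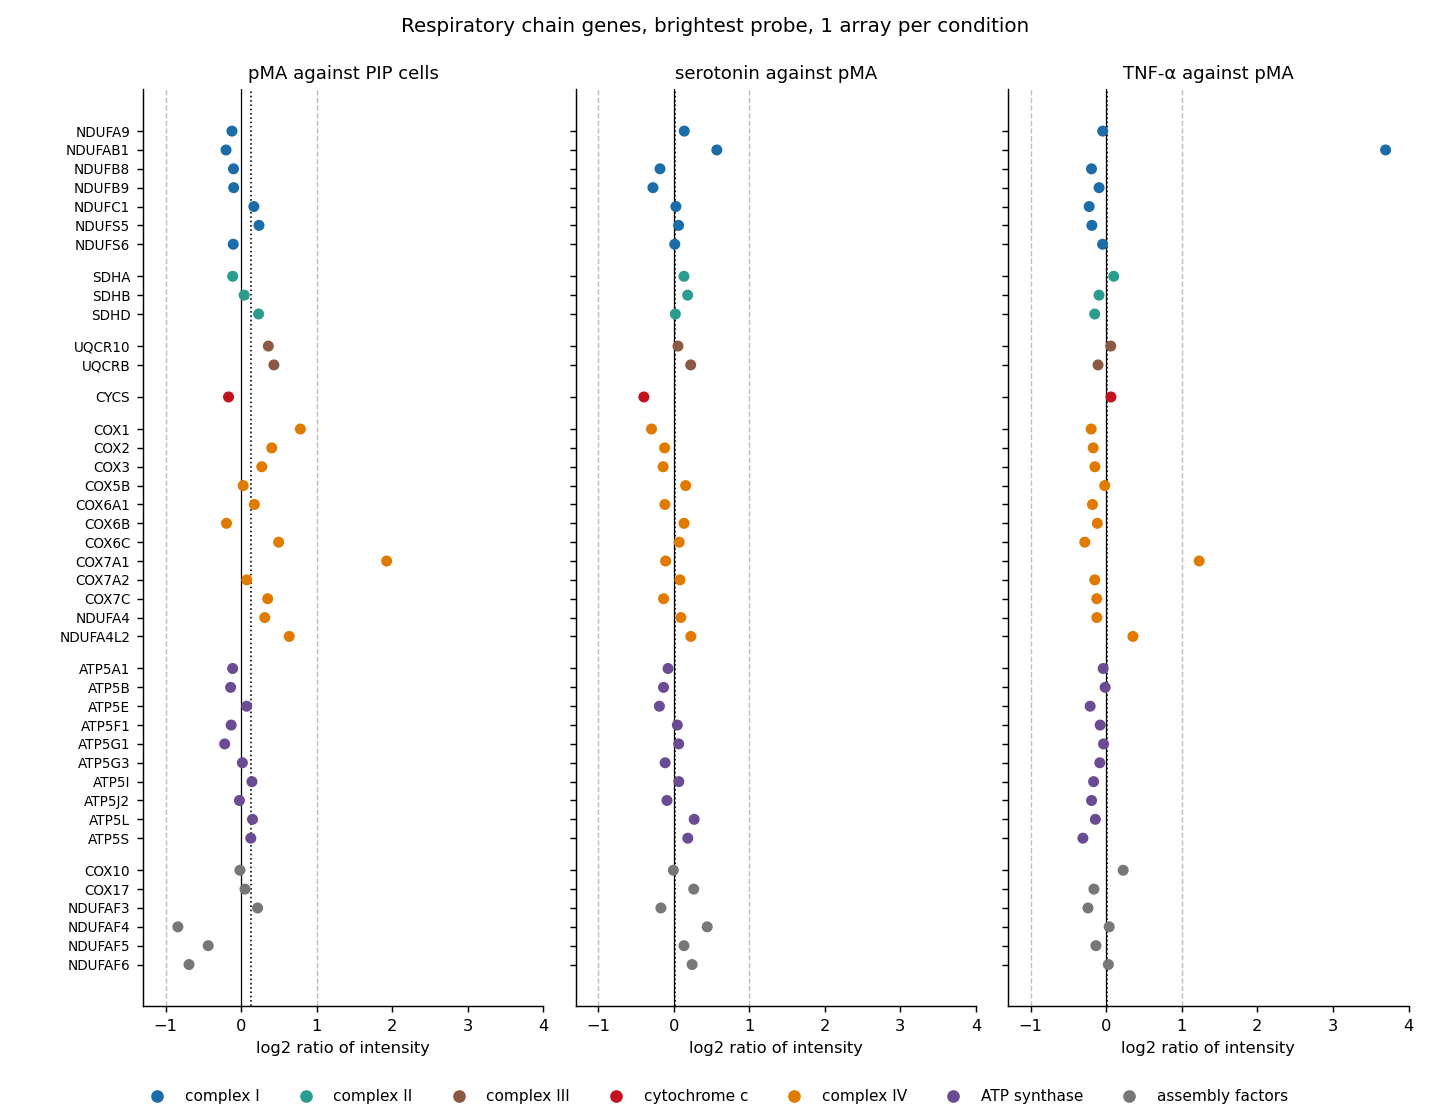
Log2 ratio of the respiratory chain genes named here, grouped by complex on the vertical axis, in 3 panels for pMA against PIP, serotonin against unstimulated pMA and TNF-α against unstimulated pMA. Each point is 1 gene read by its brightest probe on 1 array per group, the dotted line is the median of all gene names and the dashed lines are 2-fold changes. Of the genes plotted, COX7A1 (1.92 and 1.23) and NDUFAB1 (3.70) lie beyond the dashed lines.

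**Figure D2:**
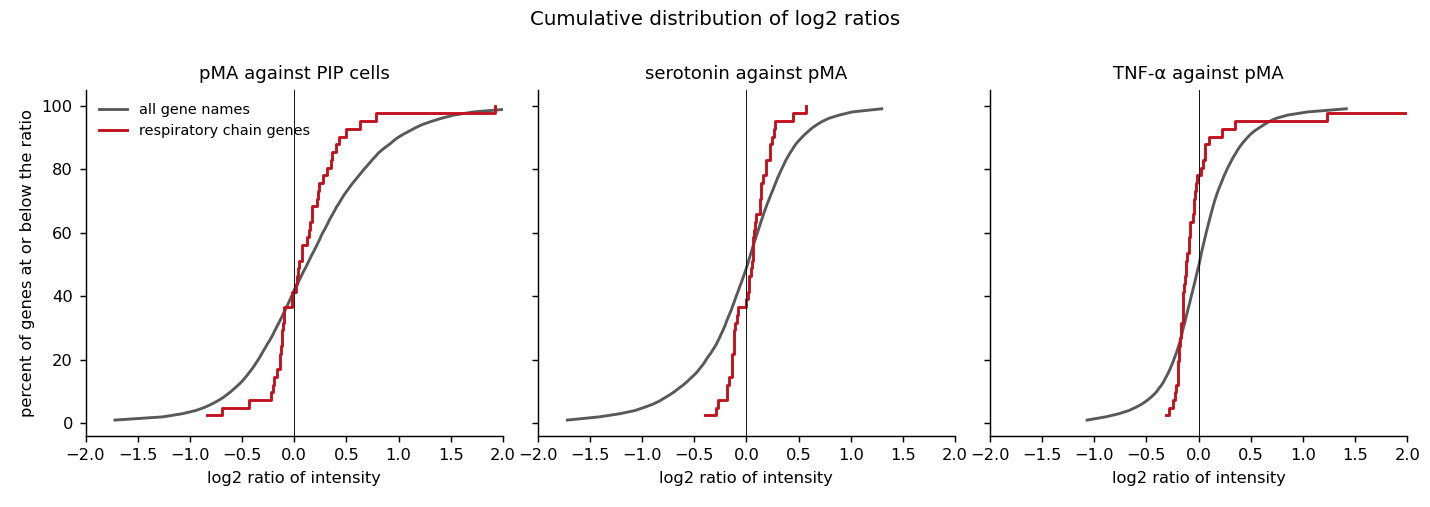
Cumulative share of gene names (vertical axis) at or below a log2 ratio (horizontal axis, from −2 to 2) for all gene names and for the 42 respiratory chain genes in the same 3 comparisons. The curve of the chain is the steeper one in each panel, and after TNF-α it lies to the left of the curve of all gene names over most of its height. NDUFAB1, at 3.70 after TNF-α, is beyond the axis.

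Complex I, the NADH dehydrogenase, had 8 subunits with a ratio, none of them encoded in mitochondrial DNA. Between PIP and pMA their median log2 ratio was −0.10, which scaling to spike-in controls turned to 0.28, and no subunit passed 1.5-fold. NDUFB8 and NDUFB9, accessory subunits of the membrane arm, were the members with several probes of which every probe was lower in pMA than in PIP and lower after both stimulations than in unstimulated pMA. NDUFB8 had levels of 6.16, 6.05, 5.87 and 5.86 in PIP, pMA, pMA with serotonin and pMA with TNF-α, and its 4 probes were negative in all 3 comparisons, from −0.23 to −0.08. NDUFB9 had levels of 6.49, 6.39, 6.11 and 6.29 in the same order, and its 3 probes read −0.28 to −0.23 after serotonin and −0.11 to −0.03 after TNF-α. Against PIP, both genes changed sign to positive in pMA when the arrays were scaled to spike-in controls, to 0.28 for each.

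The remaining accessory subunits of complex I were flat apart from NDUFAB1. NDUFA9, NDUFC1, NDUFS5 and NDUFS6 had log2 ratios between −0.12 and 0.24 for differentiation, between 0.01 and 0.14 for serotonin and between −0.23 and −0.05 for TNF-α. NDUFS5 went from 6.68 in PIP to 6.92 in pMA, 6.98 after serotonin and 6.72 after TNF-α, and NDUFC1 from 4.11 to 4.28, 4.30 and 4.05. Both were thus close to the PIP level again after TNF-α, with log2 ratios to unstimulated pMA of −0.19 and −0.23.

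NDUFAB1 gave the largest ratio of the set. The protein carries acyl chains in the mitochondrial synthesis of fatty acids and lipoic acid and is also bound to complex I. Its level was −3.15 in PIP, −3.35 in pMA, −2.78 after serotonin and 0.35 after TNF-α. The first 3 arrays thus lay close together well below the 75th percentile, and the TNF-α array stood 13.0-fold above unstimulated pMA (log2 ratio 3.70) and 8.73-fold above pMA with serotonin (3.13). In unstimulated pMA the level was close to the faintest spot well above background on that array, at −4.64, so the size of the fold is uncertain. Under 9 processing settings the TNF-α ratio ran from 2.57 to 3.77 and stayed above 2-fold in each. It rests on the single probe printed above, which like probes of other members holds no open reading frame, and no other probe of the gene was there to set beside it. The other 7 subunits of complex I had log2 ratios between −0.23 and −0.05 after TNF-α.

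Complex II, the succinate dehydrogenase, links the chain to the TCA cycle, and 3 of its 4 subunits were on the array under their names. SDHA, the flavoprotein that oxidizes succinate, had levels of 3.97 in PIP, 3.85 in pMA, 3.99 after serotonin and 3.95 after TNF-α. SDHB, the iron-sulfur subunit, had levels of 5.30, 5.34, 5.52 and 5.24 in the same order. SDHD, a membrane anchor, had levels of 5.19, 5.42, 5.44 and 5.27. No subunit of complex II differed by more than 1.21-fold in any of the 4 comparisons made. The brightest probe of SDHD read 0.23 in differentiation, while the other 6 of its 7 probes were negative, from −0.39 to −0.11. After TNF-α, all 7 probes of SDHD were negative, down to −0.16.

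Complex III, the cytochrome bc1 complex, was represented by the small accessory subunits UQCRB and UQCR10. UQCRB had levels of 5.69 in PIP, 6.12 in pMA, 6.35 after serotonin and 6.02 after TNF-α. Its 7 probes were positive in differentiation (0.14 to 0.43) and after serotonin (0.22 to 0.32), and negative after TNF-α (−0.22 to −0.10). Of these probes, 6 overlap another by up to 49 bases and are not independent readings. UQCR10 had levels of 6.65, 7.01, 7.07 and 7.07, so PIP was its lowest array and the 3 arrays of pMA lay together. In the differentiation comparison both genes stayed positive under each of 9 settings, with a median of 0.40 here and 0.05 to 0.77 over the settings.

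Cytochrome c shuttles electrons from complex III to complex IV, and outside the mitochondrion it starts apoptosis. CYCS had levels of 5.72 in PIP, 5.55 in pMA, 5.15 after serotonin and 5.61 after TNF-α. It was lowest after serotonin, where it had the most negative ratio of the 42 genes, −0.40, a 1.32-fold lower level that all 12 of its probes shared in direction (−0.54 to −0.12). Over 9 settings the serotonin ratio stayed between −0.40 and −0.29. Between TNF-α and serotonin, all 12 probes read higher after TNF-α, by 0.14 to 0.61. All 12 probes also read lower in pMA than in PIP, from −0.61 to −0.17, but scaling to spike-in controls turned the brightest probe to 0.21.

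Complex IV, cytochrome c oxidase, had the most genes with a ratio of the 5 complexes, and most of them were on the higher side after differentiation. Complex III had a higher median there, 0.40 on 2 genes. Of the 12 genes of complex IV with a ratio, 11 were positive in pMA against PIP, the median log2 ratio was 0.33, and 9 lay above the median of all gene names. The number of positive genes ran from 6 to 12 over 9 settings. The complex's median minus that of all gene names ran from −0.07, with no filter on dim probes, to 0.35. After serotonin 6 of 12 were positive (6 to 10 over the settings) with a median of −0.02, and after TNF-α 2 of 12 (2 to 3) with a median of −0.14.

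COX7A1 was the gene of the chain that rose in differentiation. It encodes the form of subunit 7A that is known from heart, skeletal muscle and brown fat. Its level was 1.44 in PIP, 3.36 in pMA, 3.25 after serotonin and 4.59 after TNF-α. PIP was thus the lowest array, pMA with and without serotonin lay together, and TNF-α was the highest. The level rose 3.80-fold in differentiation (log2 ratio 1.92) and another 2.34-fold after TNF-α (1.23), and after serotonin the log2 ratio to unstimulated pMA was −0.11. A second probe, which shares 31 bases with the first and is no independent reading, had levels of 1.05, 2.95, 2.84 and 4.15. Over 9 settings the differentiation ratio ran from 1.57 to 2.30 and the TNF-α ratio from 1.15 to 1.30, each above 2-fold throughout.

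COX7A2, the isoform of other tissues, did not follow. It had levels of 7.30 in PIP, 7.37 in pMA, 7.46 after serotonin and 7.22 after TNF-α, all within 1.5-fold. Its 5 probes gave 0.02 to 0.11 in differentiation, 0.08 to 0.11 after serotonin and −0.22 to −0.15 after TNF-α, where COX7A1 read 1.23, and 3 of these probes overlap. COX6A1, the non-muscle isoform of subunit 6A, had levels of 7.89, 8.06, 7.95 and 7.88 in the same order of arrays. Neither gene was thus higher by 2-fold where COX7A1 was.

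The gene pair NDUFA4 and NDUFA4L2 was first assigned to complex I, and NDUFA4 is now counted as a subunit of complex IV. NDUFA4 had levels of 7.23 in PIP, 7.54 in pMA, 7.63 after serotonin and 7.41 after TNF-α. Its 6 probes, 2 of which overlap by 47 bases, were all positive in differentiation (0.11 to 0.43) and after serotonin (0.07 to 0.16). All were negative after TNF-α (−0.19 to −0.12). Scaling to the array median moved the differentiation value of the brightest probe from 0.31 to −0.04. NDUFA4L2, which is known as a gene induced in low oxygen, had levels of −1.49 in PIP, −0.85 in pMA, −0.62 after serotonin and −0.50 after TNF-α. Both of its probes were positive in all 3 comparisons. It was 1.55-fold higher in pMA than in PIP and 1.28-fold higher after TNF-α than in unstimulated pMA, opposite in sign to NDUFA4 in the latter.

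Among the other nuclear subunits, COX6C had levels of 6.28 in PIP, 6.78 in pMA, 6.85 after serotonin and 6.49 after TNF-α. Its 3 probes gave 0.41 to 0.50 in differentiation and −0.28 to −0.22 after TNF-α, and the differentiation ratio stayed positive when the arrays were scaled to their medians, at 0.15. COX7C, with levels of 6.53, 6.88, 6.74 and 6.75, was lowest in PIP as well. COX5B was flat, with levels of 7.66, 7.69, 7.84 and 7.67. COX6B was the 1 gene of complex IV that was negative in differentiation, with levels of 6.60, 6.40, 6.54 and 6.28 at its brightest probe, and a dimmer second probe gave −0.86.

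The subunits COX1, COX2 and COX3 form the core of complex IV, are encoded in mitochondrial DNA, and COX1 and COX2 hold the heme and copper groups that pass electrons to oxygen. COX1 had levels of 8.93 in PIP, 9.72 in pMA, 9.42 after serotonin and 9.52 after TNF-α. PIP was its lowest array and unstimulated pMA its highest, 1.72-fold apart (log2 ratio 0.78). COX2 had levels of 8.40, 8.80, 8.68 and 8.63, and COX3 of 9.34, 9.61, 9.47 and 9.46, in the same order of PIP, pMA, serotonin and TNF-α. All 3 genes were thus lowest in PIP and highest in unstimulated pMA at their brightest probes, but the steps were small and COX3 moved from 0.27 to −0.08 when the arrays were scaled to their medians.

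All 24 probes of COX1 were positive in differentiation, from 0.51 to 1.88, and 11 of them passed 2-fold although the brightest did not. The ratio depended on where in the transcript a probe lay. The 10 probes that start before base 900 had a median log2 ratio of 1.36, and 9 of them passed 2-fold. The 14 probes from base 900 onward had a median of 0.84, and 2 passed. Over the 24 probes the ratio correlated with the start position at r = −0.86 (Spearman's rho −0.85). These probes share their arrays, 8 of them overlap another by up to 25 bases, and the ratio also correlated with the level of the probe at r = −0.59, so this is a description with no test. After serotonin the pattern ran the other way, with all 24 probes negative (−0.92 to −0.29), a median of −0.60 before base 900 and −0.41 from there on, and r = 0.78 with the start. After TNF-α all 24 were negative as well (−0.44 to −0.14), with r = 0.31. Unstimulated pMA enters these 3 comparisons, in differentiation with the opposite sign. Between TNF-α and serotonin, which leaves that array out, all 24 probes were higher after TNF-α, with a median of 0.30 before base 900 and 0.15 from there on and r = −0.86 with the start.

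**Figure D3:**
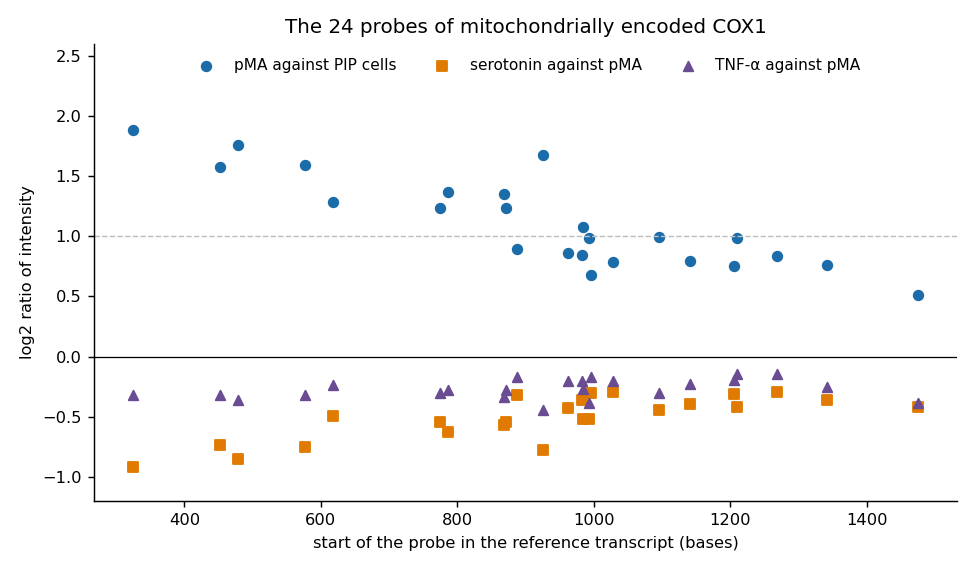
Log2 ratio of the 24 probes of COX1 (vertical axis) against the start of the probe in the reference transcript (horizontal axis, bases) for differentiation, serotonin and TNF-α, 1 array per group. In differentiation the points fall from above 1 at the 5′ side toward 0.51, after serotonin they climb from −0.92 toward −0.29, and after TNF-α they stay between −0.44 and −0.14.

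The 4 probes of COX2 were all positive in differentiation (0.33 to 0.50), but after serotonin 3 of 4 were positive (up to 0.39) while the brightest read −0.12, so its sign after serotonin rests on the probe. The 13 probes of COX3 were all positive in differentiation (0.10 to 0.56). Their ratio had r = 0.32 with the start, where COX1 had −0.86. Under each stimulation 10 of the 13 were negative, and the ratio was lower toward the 3′ side. Its r with the start was −0.72 for serotonin and −0.81 for TNF-α, where COX1 had 0.78 and 0.31. The 3 probes positive for serotonin were the most 5′ ones, starting at bases 82, 120 and 148. The COX3 ratio also correlated with probe level (r = −0.54 and −0.59), and 5 probes overlap another by up to 49 bases. Of 10 further gene names encoded in mitochondrial DNA that the name pattern did not take, a list added after the gene names were seen, 9 were positive in differentiation (5 to 10 over 9 settings), with a median of 0.35, 7 after serotonin (median 0.08) and 4 after TNF-α (median −0.01). ND1, a core subunit of complex I, had levels of 7.70 in PIP, 8.32 in pMA, 8.42 after serotonin and 8.32 after TNF-α, and its 20 probes were all positive in differentiation (0.41 to 0.83) and after serotonin (0.05 to 0.59). The 12 probes of ND2 and the 10 of ND4 were likewise all positive after serotonin, where all 24 probes of COX1 were negative. ND6, from the other strand of the mitochondrial genome, had the lowest value of the list after TNF-α, −0.67. All 10 stayed under 2-fold at their brightest probes, except that in differentiation ND4L passed it after quantile normalization and ND1 and ND4L after scaling to spike-in controls.

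ATP synthase, or complex V, was evenly split in differentiation: 5 of its 10 genes were positive and 5 negative, a split that scaling to the array median turned to 0 and scaling to spike-in controls to 10 positive, with ratios between −0.22 in ATP5G1 and 0.15 in ATP5L. After serotonin 5 were positive, with a median of −0.01. After TNF-α all 10 were negative, with a median of −0.12, and between 0 and 3 of the 10 were positive over 9 settings. ATP5A1, the alpha subunit of the catalytic head, had levels of 7.0 in PIP, 6.89 in pMA, 6.81 after serotonin and 6.85 after TNF-α. Its 14 probes were all negative after serotonin (−0.26 to −0.04) and 13 were negative in differentiation, whereas after TNF-α 10 of 14 were positive although the brightest read −0.04. ATP5B, the catalytic beta subunit, had levels of 7.06, 6.92, 6.78 and 6.90, and after TNF-α 9 of its 10 probes were positive while the brightest read −0.02. For these 2 genes the negative sign after TNF-α therefore holds for the brightest probe and not for most of the others.

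The c subunits form the ring that turns in the membrane, and 2 genes for the same mature protein were on the array. ATP5G1 had levels of 6.43 in PIP, 6.21 in pMA, 6.28 after serotonin and 6.17 after TNF-α. ATP5G3 had levels of 7.71, 7.72, 7.61 and 7.64, with 1 probe each. Neither differed by more than 1.16-fold in the comparisons. ATP5S, a coupling factor, had the most negative ratio of the chain after TNF-α, −0.31, from levels of 1.14, 1.27, 1.45 and 0.96. It has 1 probe, and it was also the gene with the most negative ratio of TNF-α to serotonin, −0.50. ATP5E, ATP5I, ATP5J2 and ATP5L, small subunits of the central stalk and the membrane part, had log2 ratios between −0.21 and −0.14 after TNF-α, with both probes negative in ATP5I, ATP5J2 and ATP5L. ATP5F1, of the peripheral stalk, had levels of 6.13, 6.00, 6.04 and 5.92, and its 12 probes in differentiation ran from −0.52 to 0.05, higher toward the 3′ side (r = 0.97 with the start, probes overlapping by up to 49 bases).

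**Figure D4:**
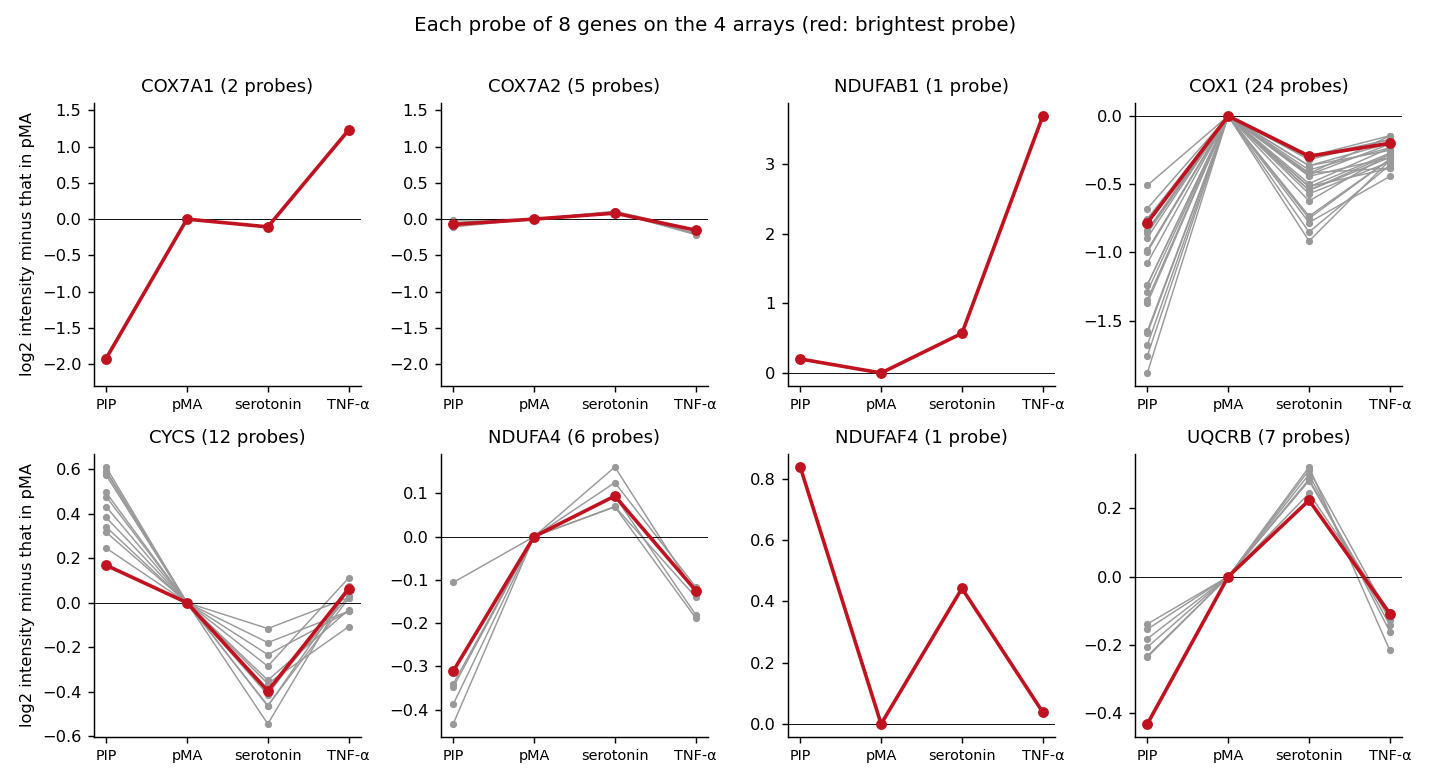
Log2 intensity of each probe of 8 genes (COX7A1, COX7A2, NDUFAB1, COX1, CYCS, NDUFA4, NDUFAF4 and UQCRB) on the 4 arrays, minus its value in unstimulated pMA, with the arrays on the horizontal axis and the brightest probe in red. The vertical axes differ between panels except for COX7A1 and COX7A2. COX7A1 climbs from PIP to pMA and to TNF-α in both probes, NDUFAB1 stands out at TNF-α in its only probe, and the 12 probes of CYCS lie below 0 at serotonin and above 0 at PIP.

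The assembly factors had a lower median in differentiation than any of the 5 complexes. Of the 6, 4 were negative in pMA against PIP, with a median of −0.23 that scaling to spike-in controls turned to 0.15, and the group's median minus that of all gene names stayed between −0.65 and −0.32 over 9 settings. NDUFAF4, a factor for the early steps of complex I, had levels of 1.79 in PIP, 0.95 in pMA, 1.39 after serotonin and 0.99 after TNF-α. PIP was highest, pMA and pMA with TNF-α lay together, and serotonin lay between them, 1.36-fold above unstimulated pMA. NDUFAF6 had levels of 0.57, −0.12, 0.12 and −0.10 in the same order, which is the same ranking with smaller steps, and NDUFAF5 had levels of −0.02, −0.46, −0.32 and −0.59. In pMA they were 1.79-fold, 1.61-fold and 1.35-fold below PIP, each on 1 probe and each negative in all 9 settings, and scaling to the array median took NDUFAF4 and NDUFAF6 past 2-fold. NDUFAF3 ran the other way, with levels of 4.37, 4.59, 4.42 and 4.35. COX17, a copper chaperone of complex IV, had levels of 6.04, 6.09, 6.35 and 5.92, and its 4 probes were all positive after serotonin (0.26 to 0.37) and all negative after TNF-α (−0.16 to −0.12). COX10, which makes the heme A precursor, had levels of −2.96, −2.98, −2.98 and −2.75 on 1 probe.

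The 2 stimulated arrays were also set against each other, which leaves the shared unstimulated array out. Of the 42 genes, 2 were at least 2-fold higher after TNF-α than after serotonin, NDUFAB1 and COX7A1 (1.34), beside 5.07% of all 21866 gene names, and none at least 2-fold lower, beside 1.83%. At 1.5-fold the counts were the same 2 and 0, beside 13.6% and 7.57% of all gene names. The median log2 ratio was −0.10 against 0.04 for all gene names, 30 of 42 were negative, and 8 of 42 (19.0%) lay above the median of all. Over 10 settings this share ran from 16.7% to 28.6%. COX17 (−0.43) and ATP5S (−0.50) were among the lowest, and CYCS (0.46) was the highest after the 2 that passed 2-fold. In 22 of 29 genes with several probes, all probes had 1 sign.

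Other genes of the same organelle stayed within 2-fold as well at their brightest probes, and in differentiation their lists had medians below that of all gene names. At those probes, no gene of the lists that follow, written from general knowledge, passed 2-fold in any comparison with the arrays scaled to their 75th percentile. Dimmer probes of MDH2 (down to −1.27), TOMM34 (up to 1.08) and POLG (up to 1.08, with the brightest at −0.27) passed it in differentiation. For differentiation, scaling to the array median took IDH2, MDH2, TOMM20 and MRPL58, beside NDUFAF4 and NDUFAF6, past 2-fold lower, and scaling to spike-in controls took PC and TOMM34 past 2-fold higher. With no filter on dim probes, SLC25A31 and UCP3, which were not well above background on any array, passed it as well. Of 47 listed assembly factors, 9 were on the array, 4 of which are among the genes above. Their medians were −0.38 for differentiation, 0.21 for serotonin and −0.04 for TNF-α. Pyruvate dehydrogenase and the TCA cycle, which feed the chain with NADH and succinate, had 15 of 19 genes on the array, and 11 of 15 were negative in differentiation (median −0.23), from −0.99 in MDH2, the malate dehydrogenase, to 0.67 in PC, the pyruvate carboxylase. With arrays scaled to spike-in controls the differentiation median of this list turned to 0.14 and that of the next 4 lists turned positive as well, and 1 of 15 to 9 of 15 TCA cycle genes were positive over 9 settings. The medians of this list were 0.06 after serotonin and 0.03 after TNF-α.

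Regulators of mitochondrial biogenesis had 7 of 21 genes on the array, with medians of −0.20, 0.06 and −0.03 in the same order of comparisons. TFAM, which packs and transcribes mitochondrial DNA, was the highest after serotonin, at 0.60, and PPRC1, a coactivator, in differentiation, at 0.49. Of the mitochondrial import and chaperone genes 9 of 29 were on the array. All 9 were positive after serotonin (median 0.28), also in each of 9 settings, up to 0.77 in TIMM8A, while in differentiation 7 of 9 were negative (median −0.28) and after TNF-α the median was 0.04. The 21 mitochondrial ribosomal proteins, which serve the synthesis of COX1, COX2 and COX3, had medians of −0.14, 0.09 and −0.04. Carriers, channels and uncouplers had 8 of 13 genes on the array and 6 with a ratio, with medians of −0.16, −0.03 and −0.03. UCP3 and SLC25A31 were not well above background on any array.

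The cell type labels were checked against marker genes, with summed levels on the linear scale in units of each array's 75th percentile, in the order PIP, pMA, serotonin and TNF-α. All 10 adipocyte markers were on the array. In unstimulated pMA, ADIPOQ, PLIN1 and CEBPA were not well above background, PLIN1 on none of the arrays, whereas CIDEC rose from −4.69 in PIP to −0.82 in pMA and FABP4, not well above background in PIP, and PPARG also passed 2-fold. The second of 2 CIDEC probes stayed under 2-fold in differentiation, at 0.75. LEP, LPL, LIPE and GPD1 did so too, between 0.12 in LIPE and 0.38 in LPL. The summed level was 5.68, 7.42, 17.8 and 12.8, and after serotonin LPL led this rise, from 1.00 in unstimulated pMA to 3.41. FABP4 fell by 2.77 after serotonin, from −1.67 to −4.44, and PPARG had a log2 ratio of −0.08, so the markers did not move together. Preadipocyte and fibroblast markers, 6 of 8 on the array, summed to 63.9, 61.2, 37.4 and 48.3. Among them DLK1 was well above background only after TNF-α, and so in neither PIP nor unstimulated pMA. Of the myogenic markers, 7 of 8 on the array, MYOD1 and MYF5 were not well above background on any array, whereas MYOG, PAX7, DES, CKM and ACTA1 were on every array. The 7 summed to 644, 659, 177 and 611, nearly all of it ACTA1, which fell by 1.94 after serotonin on the log2 scale. COX7A1, the muscle isoform, was 2.34-fold higher after TNF-α while this sum was 611 against 659. Of 8 adipocyte markers with a ratio there, 3 also rose past 2-fold: CIDEC (1.94), FABP4 (1.45) and LPL (1.28). PPARG read 0.90, and 1 of the 8 was negative, GPD1 at −0.04. After serotonin the log2 ratio of COX7A1 was −0.11 while LPL rose and FABP4 fell. The part of these cell types in the levels of COX7A1 was not tested.

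Endothelial markers, 5 of 5, summed to 1.59, 1.16, 0.483 and 1.16, with CDH5 and TEK not well above background on any array. Macrophage and leukocyte markers, 3 of 6, summed to 1.61, 2.14, 1.99 and 3.1, with CD163 not well above background on any. Markers of dividing cells, 4 of 6, summed to 46.7, 22.9, 30.7 and 24.2, most of it MKI67, which stayed within 2-fold. CCNB1, a cyclin of mitosis, fell by 4.91 in differentiation, from 3.26 to −1.65, fell to −2.70 after serotonin, and rose to 0.15 after TNF-α. CDK1, its kinase, fell by 4.02 in differentiation and rose by 1.52 after TNF-α, with a ratio of 0.35 on the log2 scale for serotonin. NDUFAF4, NDUFAF5 and NDUFAF6 were lower in pMA beside this fall in markers of division, and the part of dividing cells in these results was not tested.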

How the data were processed

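Total RNA of PIP, unstimulated pMA, pMA with serotonin and pMA with TNF-α was pooled within each group by the authors, labeled with Cy3 and hybridized to 4 arrays on 1 slide, 1 array per group. One paragraph of the methods names a mouse array read by GenePix and another a two-color porcine array, while the deposited files are scans of a porcine array in 1 color. Serotonin was dosed at 100 μM in the methods, which the labels write as 100 μM per ml. The authors read the arrays with Agilent Feature Extraction 10.7.3.1, per the submitters' processing notes, and deposited for each spot a background-corrected intensity (processed signal), mean and background intensities, and other columns that hold quality flags. The authors' table of values held the same processed intensity divided by 1 constant per array, on a linear scale. The methods name GeneSpring GX and limma with a 2-fold cutoff. With 1 array per group limma cannot estimate a spread, so counts past that cutoff are given without a test.

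From the processed intensity, log2 was taken and the log2 of the 75th percentile of the 43803 non-control spots of that array was subtracted. Control spots and spots marked as outliers (12, 1, 3 and 4, none of them in the genes described) were left out, no spot was saturated, and spots of 1 probe were averaged. The brightest probe stood for a gene. A probe not well above background on 1 of 2 arrays compared was set no lower than the faintest spot well above background there, which no ratio of the chain needed, and no ratio was given where both were dim. Named with levels on all arrays were genes past 2-fold, the 3 highest and 3 lowest of each comparison, complex II, CYCS, mitochondrially encoded genes and tissue isoforms, and further genes by group, except 1 gene of complex I that is not reported here by name and enters only the counts and medians. The genes and lists were chosen with earlier results of these data known. The number of arrays limits the precision. Alternatives were other scalings (array median, 5 bright spike-in controls, quantile), normexp background (offset 50), other filters, the median over probes, the authors' values, subunits without assembly factors and cutoffs of 1.5-fold and 4-fold. Python 3.11.15 with numpy 2.4.6 and pandas 2.3.3, and R 4.3.3 with limma 3.58.1, were used, and the functions were tested on simulated data. A search of promoters and the coordinates of the genes in the genome were not analysed here.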

Additional observations from a re-analysis of the deposited data

How the results depend on the processing

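For differentiation, scaling to the array median gave 2 of 42 genes lower by at least 2-fold, beside 1647 of 18983 gene names. It turned the median log2 ratio of the chain to −0.29. Scaling to bright spike-in controls gave 3 of 42 higher, beside 4086 of 18206 gene names, and a median of 0.44. The share of the 42 genes above the median of all gene names became 59.5% after quantile normalization and, of 43 genes with COX8H included, 14.0% with no filter on dim probes. A 1.5-fold cutoff gave 3 higher and 2 lower, beside 23.4% and 10.6% of all gene names. A 4-fold cutoff, a log2 ratio of 2, gave 0 higher, where the 99th percentile of all gene names was 2.08. For serotonin that share became 81.0% after quantile normalization and 79.1% of 43 with no filter. For TNF-α it became 38.1% with the normexp background. A 4-fold cutoff left 1 gene higher after TNF-α and 1 between TNF-α and serotonin. The 99th percentiles of all gene names were 1.42 and 2.02 in these 2 comparisons. The cause of these shifts was not tested. The chain's median minus that of all gene names ran from −0.35 to 0.10 over 10 settings for differentiation, from 0.04 to 0.19 for serotonin, from −0.12 to −0.05 for TNF-α and from −0.20 to −0.10 between TNF-α and serotonin. Of 42 genes, 11, 30, 30 and 34 kept their direction in every setting of these 4 comparisons. Of all gene names, 1852 were at least 2-fold higher and 663 lower in pMA than in PIP, against 854 and 1647 after scaling to the median, 4086 and 307 after scaling to spike-ins, 1063 and 881 after quantile normalization, 466 and 358 with normexp and 5818 and 1312 with no filter. No paired analysis was possible because each group has 1 array and the groups share only replicate number 1, and for the same reason no replicate could be left out. What 1 array per group can show is limited to differences between these 4 pools.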
